A study of Homo sapiens with 2 samples.

Results

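Metallothioneins and zinc transporters are the genes that bind zinc in the cytosol and move it across membranes. The set was defined by gene symbol, with earlier results of these data known, and covers 35 protein-coding genes of the 58051 genes in the deposited tables: 10 metallothioneins, the 10 SLC30A exporters, the 14 SLC39A importers and the metal-sensing transcription factor gene MTF1. The samples were BEAS-2B cells, a human bronchial epithelial line immortalised for culture, with the wild-type genotype (parental, passages 20 to 30) and BEAS-2B cells overexpressing the cation channel TRPV3 (TRPV3-OE, passages 4 to 8), with 1 RNA library from each. Both were grown in LHC-9 medium on a collagen and fibronectin coat and taken at confluence. How the TRPV3-OE line was made, and whether it is 1 clone or a pool, is not given in the sources used here. Passage moved together with genotype, so the effects of genotype and passage cannot be told apart.

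Metallothioneins are small cysteine-rich proteins that hold zinc, copper and cadmium through their cysteine side chains. When free zinc rises in the cytosol, MTF1 binds metal response elements in the promoters of metallothionein genes and of SLC30A1 and raises their transcription. SLC30A proteins (ZnT) carry zinc out of the cytosol, into the medium or into vesicles and the secretory pathway, and SLC39A proteins (ZIP) carry it into the cytosol. In airway epithelium metallothioneins are also known to respond to metals in inhaled particles, to oxidants and to glucocorticoids.

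Gene counts totalled 17450658 in the parental and 17477953 in the TRPV3-OE library. TRPV3 itself had 26 and 54077 counts, in the direction of the labels. A single library per group gives no replicate error, so differences are given without p-values. Intervals are exact, at 95%, and reflect counting error alone. PCR copies of a molecule are counted as separate reads, so the intervals may be too narrow even for that error. The epithelial label was checked on 8 epithelial markers, all measured in both libraries, whose sum was 8279 counts per 1000000 counts (CPM) in parental cells and 7622 CPM in TRPV3-OE cells. KRT7 was the largest part of that sum, with 64085 parental and 56225 TRPV3-OE counts. Of the 8 ratios, TRPV3-OE over parental, 4 were above 1 and 4 below, with a median log2 ratio of 0.13. The only one past 2-fold, the keratin gene KRT17, was 2.05-fold lower in TRPV3-OE (log2 ratio −1.03, −1.08 to −0.99). It was 1.97-fold to 1.99-fold lower under 3 other scalings. The 4 mesenchymal markers VIM, CDH2, ZEB1 and FN1 summed to 2354 and 145 CPM, and all 4 were far more than 2-fold lower in TRPV3-OE. VIM had 13736 and 24 counts, CDH2 773 and 22, ZEB1 116 and 1, and FN1 25699 and 2538. The 4 endothelial markers summed to 16.7 and 3.26 CPM, mostly from CDH5 (268 and 35 counts). PECAM1 was on the higher side at 14 and 23 counts, with an interval that held 0 (log2 ratio 0.66, −0.36 to 1.73). VWF had 4 and 0 counts, and KDR had 0 in both libraries. The 4 fibroblast markers summed to 24.4 and 16.3 CPM, nearly all from COL1A1 (410 and 285 counts). Of the immune markers, PTPRC, CD3E and LYZ were at 0 in both libraries and CD68 had 1 count in each. Whether the differences in these markers have a part in the zinc genes was not tested. In bulk RNA, fewer cells of a type and less RNA per cell cannot be told apart.

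The data show a shift of shares within the metallothioneins, with MT2A lower and MT1 genes higher, and higher counts of the zinc exporter genes SLC30A1 and SLC30A7 in TRPV3-OE cells, while most importers and MTF1 differed little. Of the 35 members 22 were measured, meaning that their counts in the 2 libraries added up to 100 or more. A member was called where its ratio passed 2-fold and the interval of the ratio lay wholly on that side of 1. The 4 members called higher were MT1F, MT1X, SLC30A1 and SLC30A7, 18.2% of those measured, where 5.31% of all 11466 measured genes were called higher. SLC39A13 was the single member called lower (4.55%), where 5.35% of all measured genes were. Relative to the median of their 50 nearest measured genes, SLC30A7 and SLC39A13 fell short of 2-fold (log2 ratios of 0.54 and −0.76). The median log2 ratio of the 22, TRPV3-OE over parental, was 0.05, against −0.03 over all measured genes. The median absolute log2 ratio was 0.32 in the members and 0.33 in all measured genes.

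**Figure D1:**
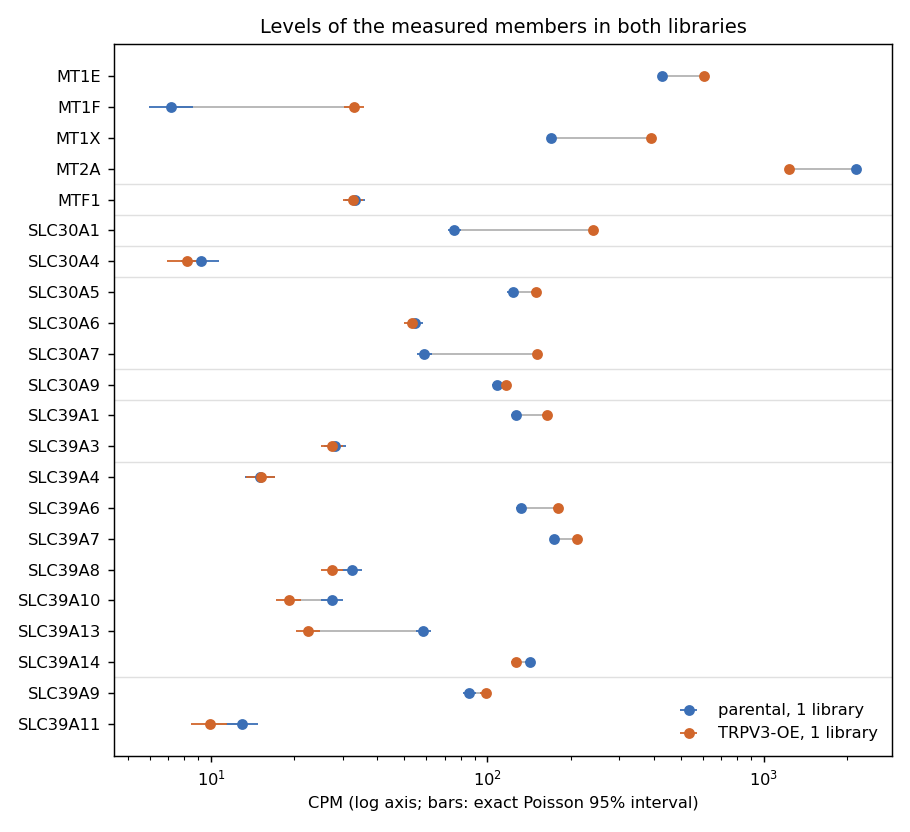
Levels of the 22 measured members in CPM on a log axis, with 1 blue point for the parental and 1 orange point for the TRPV3-OE library and exact Poisson 95% intervals. MT2A had the highest level in both libraries, 2150 and 1235 CPM, and MT1F, MT1X, SLC30A1 and SLC30A7 show the widest steps to the right.

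**Figure D2:**
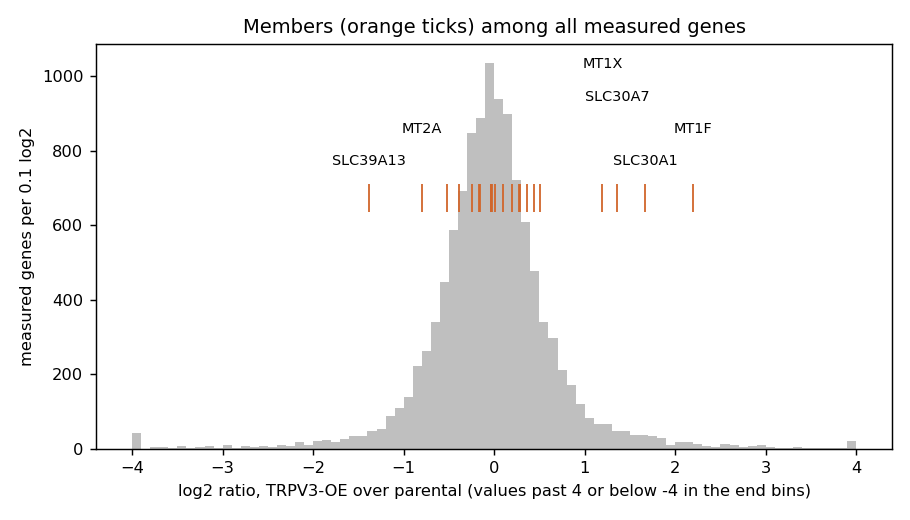
Histogram of the log2 ratio of the 11466 measured genes, in bins of 0.1, with the 22 members as orange ticks whose height has no meaning. MT1F, SLC30A1, SLC30A7 and MT1X lie in the upper tail and SLC39A13 in the lower tail.

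The 10 metallothionein genes of the set lie side by side on chromosome 16, from 56589074 to 56684196 (GRCh38), a span of 95.1 kb. Only MT2A, MT1E, MT1X and MT1F were measured. Their coding sequences are shown because the copies are so alike that a read may align to several of them. Each is 183 bases long without the stop codon, spread over 3 exons, and holds 20 TGC or TGT codons among 61, the codons for the metal-binding cysteines. The sequences were spliced from GENCODE 29 transcripts on the plus strand, and capitals mark bases that differ from MT2A at the same position.
MT2A: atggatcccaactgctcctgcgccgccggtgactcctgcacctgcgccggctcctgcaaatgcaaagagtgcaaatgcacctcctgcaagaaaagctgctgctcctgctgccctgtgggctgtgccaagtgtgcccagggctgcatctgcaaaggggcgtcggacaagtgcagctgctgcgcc
MT1E: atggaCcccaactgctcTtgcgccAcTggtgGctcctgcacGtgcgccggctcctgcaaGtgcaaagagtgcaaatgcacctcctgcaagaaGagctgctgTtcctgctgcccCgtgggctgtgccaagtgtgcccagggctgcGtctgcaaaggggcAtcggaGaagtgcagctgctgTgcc
MT1F: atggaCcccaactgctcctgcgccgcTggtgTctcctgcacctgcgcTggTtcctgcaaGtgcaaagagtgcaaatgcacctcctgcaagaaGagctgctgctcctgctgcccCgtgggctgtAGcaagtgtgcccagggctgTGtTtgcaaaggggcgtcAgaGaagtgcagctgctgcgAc
MT1X: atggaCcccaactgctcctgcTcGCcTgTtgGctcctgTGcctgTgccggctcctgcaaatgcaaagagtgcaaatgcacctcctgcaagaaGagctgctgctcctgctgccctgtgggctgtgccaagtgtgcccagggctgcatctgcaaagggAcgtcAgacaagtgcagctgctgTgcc

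MT1E and MT1X each matched MT2A at 92.3% of these bases and MT1F at 91.3%, and the most distant pair, MT1F and MT1X, matched at 88.5%. Long exact matches were nevertheless a small part of the sequence pooled over all transcripts of a gene, intron-retaining ones included. Such matches may be a larger part of the spliced mRNA alone, which was not tested. Of all distinct stretches of 50 bases in the transcripts of a gene, the share also found in a gene elsewhere in the genome was 1.22% for MT1F, 3.02% for MT2A, 3.64% for MT1X and 7.10% for MT1E. MT1X shared a further part with an annotated noncoding transcript over the same exons, which brought its total to 18.3%. Reads that align to several places or fall in 2 overlapping genes were left out by the default counting in both libraries alike. The read length is not given in the sources used here, so what this removed from each gene was not tested.

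MT2A (ENSG00000125148, chromosome 16, 56608199 to 56609497, plus strand), the main metallothionein of most human cells, had 36830 parental and 21994 TRPV3-OE counts. Its level was 2150 CPM (2128 to 2172) against 1235 CPM (1219 to 1252), a log2 ratio of −0.80 (−0.82 to −0.78). The parental library was thus 1.74-fold higher, short of the 2-fold limit, and the intervals did not overlap.

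The MT1 genes went the other way. MT1X (ENSG00000187193, 56682424 to 56684196), an inducible isoform, went from 2911 to 6933 counts, or 170 to 389 CPM, and was 2.29-fold higher in TRPV3-OE (log2 ratio 1.20, 1.13 to 1.26). MT1F (ENSG00000198417, 56657694 to 56660698), a minor isoform here, had 123 counts in the parental and 586 in the TRPV3-OE library. Its level of 7.18 CPM (5.97 to 8.57) against 32.9 CPM (30.3 to 35.7) made it 4.58-fold higher, the largest ratio of any measured member. MT1E (ENSG00000169715, 56625475 to 56627112), second in abundance, had 7315 and 10825 counts and was 1.42-fold higher, below the limit (log2 ratio 0.51, 0.47 to 0.55). In each of the 3 MT1 genes the TRPV3-OE library was the higher one, and in MT2A the lower one.

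Because MT2A dominates the family, the sum over all 10 genes hid this shift. Summed metallothionein counts were 47192 in the parental and 40374 in the TRPV3-OE library, 2755 CPM (2731 to 2780) against 2267 CPM (2245 to 2289), a log2 ratio of −0.28 (−0.30 to −0.26). Without MT2A the other 9 genes summed to 605 and 1032 CPM, a log2 ratio of 0.77 (0.74 to 0.81) in the opposite direction. MT2A made up 78.0% of metallothionein counts in the parental library (77.7 to 78.4, exact binomial interval) and 54.5% in the TRPV3-OE library (54.0 to 55.0). MT1E went from 15.5% to 26.8% of the family, MT1X from 6.17% to 17.2% and MT1F from 0.261% to 1.45%. Per exon length, in transcripts per 1000000 transcripts (TPM), MT2A was at 5950 in the parental library beside 1459 for MT1E and 345 for MT1X. In TRPV3-OE the same genes were at 3576, 2173 and 826 TPM, so the order held while the distance between them narrowed.

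**Figure D3:**
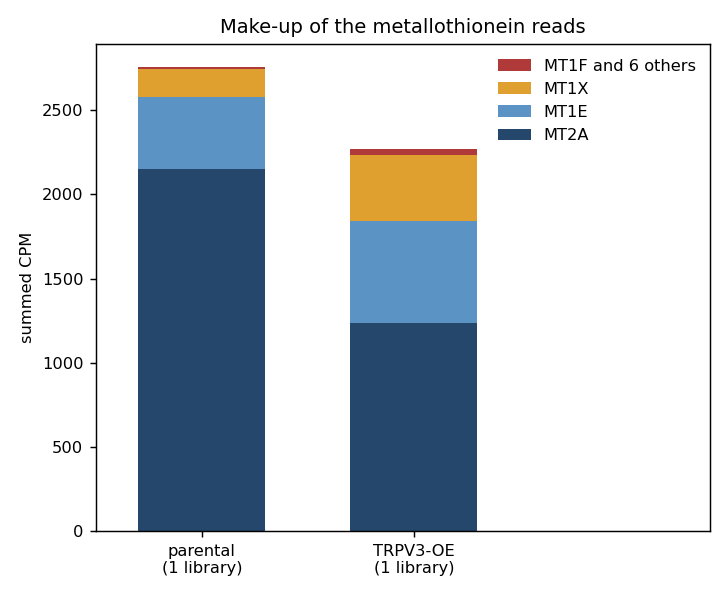
Stacked bars of summed CPM over the 10 metallothionein genes, 1 bar for each library, starting at 0. The MT2A segment measures 2150 CPM in parental and 1235 CPM in TRPV3-OE cells, and the MT1E and MT1X segments are taller in TRPV3-OE.

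The other 6 metallothioneins were near silent. MT1M had 0 parental counts, for which a floor of 3 counts or 0.175 CPM was set, and 15 in TRPV3-OE, 4.81-fold above that floor. This ratio leaves out the counting error of the 15 counts. The intervals were 0 to 0.215 CPM in the parental and 0.471 to 1.39 CPM in the TRPV3-OE library. MT1G had 1 and 10 counts, a 9.62-fold ratio whose interval on the log2 scale ran from 0.45 to 8.71. Of their 50-base stretches, 16.5% for MT1G and 9.87% for MT1M also occurred in a gene elsewhere, MT1E among these genes. Whether the few reads of MT1G and MT1M came from other copies was not tested. MT1A had 9 and 10 counts, so no difference was detectable at this depth. MT1B (0 and 1), MT1H (1 and 0) and MT3 (2 and 0), the last a form best known from brain, had too few counts for a ratio.

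The transcribed pseudogene MT1L (ENSG00000260549, 56617476 to 56618818) is not protein-coding and so not a member, and is given because it lies between MT2A and MT1E. It had 175 counts in the parental and 1289 in the TRPV3-OE library, 7.08-fold more (log2 ratio 2.82, 2.60 to 3.06), a ratio above that of every measured member. It was singled out after its values were seen. Of its 50-base stretches 4.42% occurred in another gene.

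Genes beside the cluster were mostly on the lower side, as MT2A was. On one side the nearest measured gene was BBS2, a ciliary protein gene, with 855 and 909 counts and a log2 ratio of 0.03. On the other side NUP93, a nuclear pore gene, had 2785 and 2259 counts and a log2 ratio of −0.36. The 17 other measured genes within 1000 kb of the start of MT2A had a median log2 ratio of −0.32, with 13 of 17 ratios below 1, 1 gene called higher and 2 lower. Of all measured genes 53% had ratios below 1, 5.31% were called higher and 5.35% lower. The median over the 50 measured genes nearest to each of MT1E, MT1F and MT1X was −0.30, and relative to it MT1F was 5.65-fold, MT1X 2.83-fold and MT1E 1.76-fold higher. For MT2A the local median was −0.29, and after subtraction MT2A stood at −0.51, which is 1.43-fold lower.

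**Figure D4:**
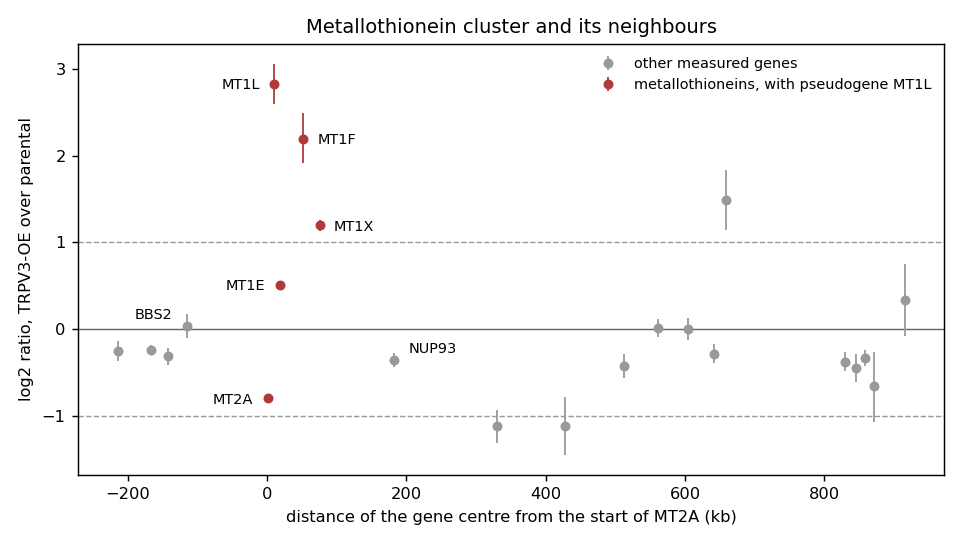
Log2 ratio of measured genes on chromosome 16 by distance of the gene centre from the start of MT2A in kb, with exact 95% counting intervals and metallothioneins, MT1L included, in red. The cluster runs from MT2A at −0.80 to MT1L at 2.82, and the 17 grey genes run from −1.12 to 1.48. BBS2 and NUP93, on the sides of the cluster, lie at 0.03 and −0.36.

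Promoters are shown for MT1X and SLC30A1, both called higher, and for MT1H, which stayed near silent, since MTF1 acts through metal response elements. The element's core was searched as TGCACNC or TGCGCNC on both strands in the 250 bases before each RefSeq start site (GRCh38.p14), and capitals mark the matches. Entries were found for 26 of the 35 members. There was none for MT1A, MT1E, MT1F, MT1G, MT1M, MT3, SLC30A8, SLC39A4 and SLC39A14. The MT1X window (chr16:56682220-56682423, plus strand) is printed up to its first annotated exon, and the MT1H window is chr16:56669564-56669813 on the plus strand. The SLC30A1 window is chr1:211579162-211579411 on the minus strand. It lies apart from the counted SLC30A1 gene, which starts at 211578742 on that strand, and no GENCODE transcript starts at the window. The stretch between the window and the start of the counted gene was not searched.
MT1X: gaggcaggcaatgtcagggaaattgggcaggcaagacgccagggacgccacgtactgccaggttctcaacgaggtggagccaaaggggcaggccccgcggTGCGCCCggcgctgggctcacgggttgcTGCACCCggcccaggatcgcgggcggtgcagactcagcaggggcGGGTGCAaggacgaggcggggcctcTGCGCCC
MT1H: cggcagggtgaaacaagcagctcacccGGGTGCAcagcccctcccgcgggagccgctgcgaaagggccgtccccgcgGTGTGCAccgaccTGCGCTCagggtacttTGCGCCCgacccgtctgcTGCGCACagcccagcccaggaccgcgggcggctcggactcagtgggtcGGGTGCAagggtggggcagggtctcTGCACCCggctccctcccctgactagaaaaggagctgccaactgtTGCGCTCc
SLC30A1: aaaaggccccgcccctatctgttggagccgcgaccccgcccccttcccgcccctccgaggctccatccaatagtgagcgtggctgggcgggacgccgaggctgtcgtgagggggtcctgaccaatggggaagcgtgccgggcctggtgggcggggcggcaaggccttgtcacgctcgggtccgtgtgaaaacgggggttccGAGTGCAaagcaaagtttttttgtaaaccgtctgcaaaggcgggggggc

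MT1X had 4 matches in the 250 bases, MT1H 8, MT2A 7, MT1B 3, SLC30A2 3 and SLC30A1 1. MTF1 and SLC30A7 had 0, and SLC39A13 had 1 match in 1 of its 2 windows. SLC30A4, SLC30A6, SLC39A3 and SLC39A6, none of them called, had 1 match each, as SLC30A1 did. SLC39A1 and SLC39A8, also not called, had 1 match in a single window each. SLC30A3, with 1 and 0 counts, had 1 and 2 matches in its windows. The other member windows held 0. Among all 35116 promoter windows of that length 24.8% held at least 1 match, 6.48% at least 2 and 1.58% at least 3. Among the 35 windows of members the shares were 42.9%, 17.1% and 14.3%. MT1H with 8 matches had 1 and 0 counts, MT2A with 7 was lower in TRPV3-OE and MT1X with 4 was higher. Whether the number of matches bears on the ratios was not tested. A match is a string of letters and not a shown binding site.

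MTF1 (ENSG00000188786, chromosome 1, 37809567 to 37859620, minus strand), which encodes the zinc-sensing activator, had 570 counts in the parental and 583 in the TRPV3-OE library. Its level was 33.3 CPM (30.6 to 36.1) against 32.7 CPM (30.1 to 35.5), with a log2 ratio of −0.02 (−0.19 to 0.15). The intervals of the 2 libraries overlapped, so the counts gave no detectable difference in MTF1 mRNA at this depth.

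Among the exporters, SLC30A1 and SLC30A7 were higher in TRPV3-OE and the other measured ones differed by less. SLC30A1 (ENSG00000170385, chromosome 1, 211571568 to 211578742, minus strand) encodes the exporter of the plasma membrane. It had 1301 counts in the parental and 4295 in the TRPV3-OE library, or 76.0 CPM (71.9 to 80.2) and 241 CPM (234 to 249), and was 3.18-fold higher (log2 ratio 1.67, 1.58 to 1.76). Its 50 nearest measured genes had a median of 0.27, and relative to them SLC30A1 was 2.63-fold higher. None of its 50-base stretches occurred in another gene.

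SLC30A7 (ENSG00000162695, chromosome 1, 100896076 to 100981753, plus strand) loads zinc into the Golgi and early secretory pathway. It had 1011 and 2697 counts, 59.0 CPM (55.4 to 62.8) against 151 CPM (146 to 157), and was 2.57-fold higher in TRPV3-OE (log2 ratio 1.36, 1.25 to 1.47). Its neighbours were high as well, with a median log2 ratio of 0.82 over the 50 nearest, and after subtraction SLC30A7 stood at 0.54, below 2-fold.

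The other early secretory exporters were closer to even. SLC30A5, which works there as a complex with SLC30A6, had 2112 and 2669 counts and a log2 ratio of 0.28 (0.20 to 0.36). SLC30A6 had 935 and 946 counts and a log2 ratio of −0.04 (−0.17 to 0.09). SLC30A9, a mitochondrial transporter, had 1859 and 2074 counts (0.10), and the vesicular exporter gene SLC30A4 had 157 and 146 (−0.16, −0.50 to 0.17).

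SLC30A2, a vesicular exporter best known for zinc secretion into milk, had 0 parental and 21 TRPV3-OE counts. Against a floor of 3 counts this was 6.73-fold higher, with the counting error of the 21 counts left out. The TRPV3-OE level was only 1.18 CPM (0.73 to 1.80). The neuronal SLC30A3 (1 and 0 counts), the pancreatic islet transporter SLC30A8 (0 and 0) and the manganese exporter SLC30A10 (1 and 0) were at or below the floor of 3 counts in both libraries. With all 33 members that had at least 1 count included, MT1G, MT1M and SLC30A2 brought the number called higher to 7, and 1 was called lower. Of all 22863 genes with at least 1 count 5.89% were called higher and 4.9% lower, and of those among them with fewer than 100 counts 6.48% and 4.45%.

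Over the 10 SLC30A genes the summed level went from 431 to 721 CPM, a log2 ratio of 0.74 (0.70 to 0.79). Over the 14 SLC39A genes it was 836 and 900 CPM, a log2 ratio of 0.11 (0.07 to 0.14). Of 6 measured exporters 2 were called higher and 0 lower, and of 11 measured importers 0 were called higher and 1 lower. These sums weigh each gene by its counts, and SLC30A1 and SLC30A7 supply most of the exporter gain.

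SLC39A13 (ENSG00000165915, chromosome 11, 47407132 to 47416501, plus strand), a secretory pathway transporter needed in connective tissue, was the one importer past 2-fold. It had 1002 counts in the parental and 399 in the TRPV3-OE library, 58.5 CPM (54.9 to 62.2) against 22.4 CPM (20.3 to 24.7), a log2 ratio of −1.38 (−1.56 to −1.22) or 2.61-fold lower. Its 50 nearest measured genes had a median of −0.62, and after subtraction it stood at −0.76, short of 2-fold.

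The remaining LIV-1 importers, the subfamily that SLC39A13 belongs to, had smaller ratios. SLC39A6, the namesake of that subfamily, had 2270 and 3193 counts (log2 ratio 0.44, 0.36 to 0.51), and SLC39A7, which releases zinc from the endoplasmic reticulum, 2978 and 3740 (0.27, 0.20 to 0.34). SLC39A10, which forms a complex with SLC39A6, was lower, at 470 and 340 counts (−0.52, −0.73 to −0.32). SLC39A6 and SLC39A10 thus lay on opposite sides of 1, each with an interval clear of 1. SLC39A14, which also carries iron and manganese, had 2437 and 2260 counts (−0.16), and its close relative SLC39A8, known for cadmium uptake, 555 and 488 (−0.24, −0.42 to −0.06). The 50 nearest genes of SLC39A8 had a median of −0.66, and relative to it SLC39A8 was on the higher side, at 0.41 (0.24 to 0.59). SLC39A4, the intestinal uptake transporter, had 258 and 269 counts (0.00, −0.25 to 0.26).

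Of the other importers, SLC39A1, a plasma membrane transporter of many cell types, had 2176 and 2920 counts (0.37, 0.29 to 0.45). SLC39A3 of the same subfamily had 481 and 488 (−0.04). SLC39A9, of the Golgi and cell surface, had 1473 and 1757 counts (0.20), and SLC39A11 222 and 176 (−0.39, −0.68 to −0.10). SLC39A2, SLC39A5 and SLC39A12 had at most 3 counts in either library.

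**Figure D5:**
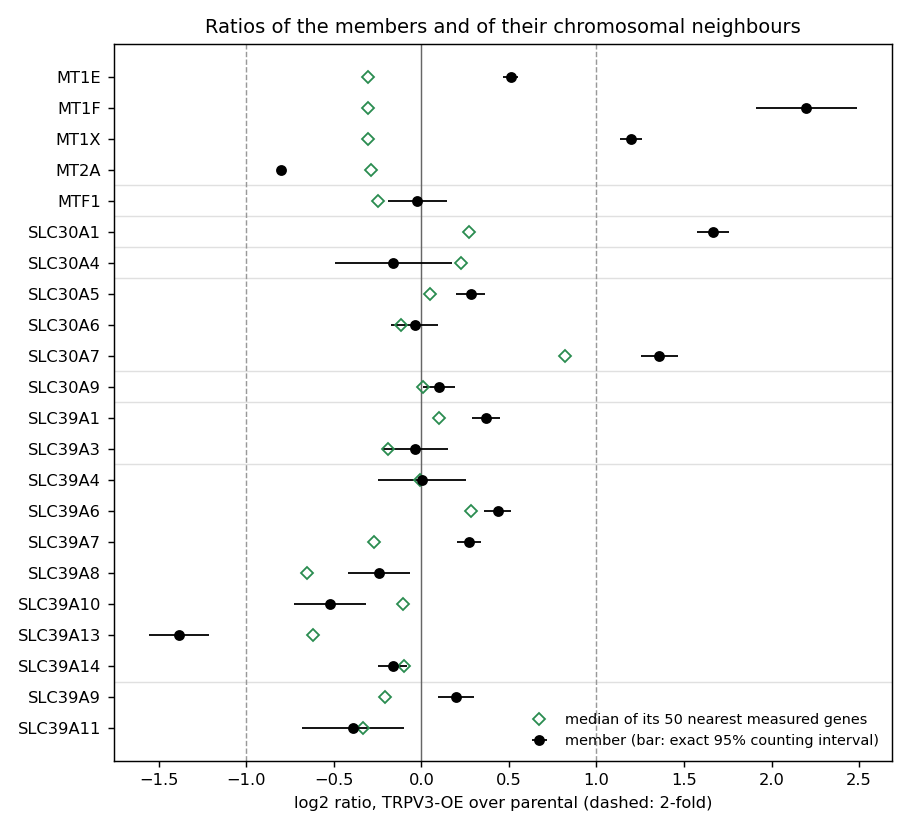
Log2 ratio of the 22 measured members (black, with exact 95% counting intervals) and the median of the 50 nearest measured genes of each (green diamonds), with dashed lines at 2-fold. SLC30A7 and SLC39A13 lie on the same side as their displaced neighbours (0.82 and −0.62), while MT1F and MT1X lie opposite to theirs (−0.30).

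After subtraction of the local medians 3 members stayed at least 2-fold higher, namely MT1F, MT1X and SLC30A1, and 0 were lower. By that measure 5.09% of all measured genes were higher and 3.75% lower. What sets the level of a chromosomal neighbourhood was not tested.

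Compared per exon length, SLC39A7 had the highest level of the 17 measured transporters in both libraries, 220 TPM in the parental and 278 TPM in TRPV3-OE. SLC39A1 (135 and 182 TPM) and SLC39A6 (129 and 183 TPM) held the next places and were close together. Of the 50-base stretches of SLC39A1, 55.2% also belonged to an annotated gene that overlaps it. Whether the gene models used for the counting, from another annotation release, held that gene was not tested. If they did, reads there were left out, so the level and place of SLC39A1 are uncertain. SLC30A1 was at place 7 in the parental library (49.9 TPM) and at place 4 in TRPV3-OE (166 TPM). SLC30A7 went from place 11 (25.3 TPM) to place 7 (68.0 TPM), and SLC39A13 from place 8 (45.9 TPM) to place 12 (18.4 TPM). SLC30A4 was last in both, at 4.08 and 3.82 TPM.

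Other genes of metal handling and of the stimuli that induce metallothioneins were read on the same scale. Of 10 further zinc genes 5 were measured and 0 were called (median 0.12). TRPM7, a zinc-permeable channel kinase, had a log2 ratio of 0.50, the lysosomal channel gene MCOLN1 0.37 and the zinc receptor gene GPR39 −0.35. Copper handling had 12 listed genes, of which SCO2 matched no gene ID and so had no counts to read. The other 11 were all measured and 0 were called (median 0.08). The copper exporter gene ATP7A had 156 and 307 counts (0.92, and 2.86-fold higher relative to a local median of −0.59). The copper importer gene SLC31A1 was at 0.54 and COMMD1 at −0.43.

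Iron handling had 0 of 15 measured genes called higher and 1 lower, with a median of −0.26. Of the 15 ratios 12 were below 1, or 80%, where 53% of all measured genes were, and 11 under each of 3 other scalings. The one called was ACO1, which encodes the iron-sensing aconitase, at 1166 and 586 counts (log2 ratio −1.05, −1.19 to −0.90). It was 1.99-fold lower, and so not called, by total counts and by upper quartile, and 1.74-fold lower relative to its local median. HFE, a regulator of iron uptake, was at −0.73 and the transferrin receptor gene TFRC at −0.66.

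In the glucocorticoid-inducible list 0 of 9 were called higher and 1 lower (median −0.02). SGK1, a kinase gene, had 331 counts in the parental and 6 in the TRPV3-OE library (−5.84, −7.30 to −4.70), while the phosphatase gene DUSP1 was at 0.67 and KLF9 at 0.38. In the metal and oxidative stress list 1 of 9 was called higher and 1 lower (median −0.12). GCLM of glutathione synthesis was at 1.03 and the cystine transporter gene SLC7A11 at −1.14. Both lay among displaced genes, with local medians of 0.83 and −0.70, and relative to these GCLM was 1.15-fold higher and SLC7A11 1.36-fold lower, so neither was called. The quinone reductase gene NQO1 was at −0.82. Called shares of all measured genes were the 5.31% and 5.35% given above.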

How the data were processed

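RNA sequencing was done on 2 libraries, 1 per genotype. The authors deposited raw read counts for each gene. They counted with featureCounts (1.5.0-p3, reads on the opposite strand) against Ensembl 87 gene models of GRCh38.p7, per the file headers, which list no setting that would keep multi-mapping reads or reads in overlapping genes. STAR and DESeq2 appear without a version in the submitters' processing notes.

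CPM were computed here from these counts with TMM factors of 0.981 (parental) and 1.02 (TRPV3-OE) by edgeR 4.0.16 under R 4.3.3. A single count is worth 0.0584 parental or 0.0562 TRPV3-OE CPM. No model was fitted. Ratios carry exact conditional binomial (Clopper-Pearson) intervals and CPM exact Poisson intervals. TPM used the exon lengths of the files, which take in intron-retaining transcripts and so understate such genes. Symbols came from a gene name table (56948 of 58051 IDs matched) and biotypes from GENCODE 29. The calculation was tested on simulated counts. All members were named, and from each list up to 3 measured genes with the largest absolute log2 ratio. The members and lists were chosen with earlier results of these data known. Python 3.11.15 was used with pandas 2.3.3, scipy 1.17.1, matplotlib 3.10.9 and numpy 2.4.6, and DESeq2 1.42.0 served for an alternative scaling. An immune marker of the lists is not reported here.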

Additional observations from a re-analysis of the deposited data

How the results depend on the processing

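No paired analysis was possible because there was a single library in each group, which also meant that leaving out a replicate could not be tried. Scaling by total counts, by DESeq2 size factors or by upper quartile left the counts of called members at 4 higher and 1 lower and moved the median of all measured genes by at most 0.0582. Of 88 values of single members under these scalings and a prior count of 5, 83 stayed within their interval and 5 moved outside. No called member changed sign, while MTF1, SLC30A6 and SLC39A3, whose intervals held 0, went from slightly below 0 to at most 0.03 above it under each of the 3 scalings. With the local median subtracted, 16 of 22 member values moved outside their interval, and 4 changed sign: MTF1 to 0.23, SLC30A6 to 0.08, SLC39A3 to 0.16 and SLC39A8 to 0.41. The number called higher became 7 with a minimum of 1 count and 1 at 4-fold, and the number called lower became 2 at 1.5-fold, 0 at 4-fold and 0 relative to the local median of the 50 nearest genes, by construction of these limits for all but the last. In the last case SLC39A13 went from −1.38 to −0.76. The median over members ranged from 0.00 to 0.19 over the alternatives run for it. The log2 ratio of summed metallothionein counts, −0.28, was −0.23 by total counts, −0.24 by DESeq2 size factors, −0.22 by upper quartile, −0.24 with the pseudogene MT1L added and 0.77 without MT2A. The addition of MT1L and the setting of counts of 0 to 3 in the median were chosen after the data were seen, as were the alternatives for the listed genes. For MT1A, with 9 and 10 counts, the interval (−1.36 to 1.57) took in 2-fold in both directions.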

Other observations

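Metallothionein pseudogenes and copies on other chromosomes had few reads. MT2P1 had 13 parental and 4 TRPV3-OE counts, a log2 ratio of −1.76 (−3.83 to −0.06) on the same side as MT2A. MT1XP1 had 7 and 11 counts, a log2 ratio of 0.60 with an interval that held 0 (−0.90 to 2.20), and MT1P1 had 5 and 1 (−2.38, −7.94 to 0.78). MT1P3 had 2 and 0 counts and MT1HL1 had 0 in both libraries. Whether these reads came from the copies themselves or from the genes of the cluster was not tested.

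Of the 83 matched genes in the pathway and cell type marker lists, 21 had fewer than 100 summed counts and were not counted as measured. Among these 21, 4 were at least 2-fold higher in TRPV3-OE with an interval above 0, 0 were lower and 17 were neither. At least 1 count was found for 15 of them. Of all 11397 genes with 1 or more but fewer than 100 summed counts, 6.48% were called higher and 4.45% lower. The 4 are named here after their values were seen, and the intervals cover counting error only. SLC40A1, which encodes the iron exporter ferroportin, had 3 and 15 counts (log2 ratio 2.27, 0.44 to 4.70). ZBTB16, a transcription factor gene induced by glucocorticoids, had 5 and 34 counts (2.71, 1.35 to 4.42), on the opposite side to SGK1 of the same list. SRXN1, which encodes sulfiredoxin, had 15 and 39 counts (1.32, 0.43 to 2.29). HSPA6, a stress-inducible heat shock gene, had 3 and 24 counts (2.94, 1.22 to 5.32). HSPA1A (1330 and 1270 counts) and HSPA1B (1997 and 1692 counts), near-identical copies whose reads may be split or lost in counting, had log2 ratios of −0.12 and −0.30.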
